A study of Mus musculus with 26 samples.

Results

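The CCN genes encode a small family of secreted, cysteine-rich proteins that lie in the extracellular matrix and act on cells through integrins and heparan sulfate. They are matricellular proteins, which means that they tune how cells respond to the matrix and to growth factors rather than build the matrix themselves. Ccn1 (also called Cyr61) and Ccn2 (also called Ctgf) are textbook targets of the YAP/TAZ-TEAD factors, of serum response factor with its MRTF partners and, for Ccn2 above all, of TGF-beta, and Ccn2 is known as a profibrotic factor of fibroblasts. Ccn3 (also called Nov) often acts against Ccn2 and can bind the receptor Notch1. Ccn4 (also called Wisp1) was named for its induction by Wnt signalling, and Ccn5 (also called Wisp2) lacks the C-terminal cystine knot domain of the other members.

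The values here are those of Ccn1, Ccn2, Ccn3, Ccn4 and Ccn5 in mouse mammary fibroblasts, 5 genes of the 12948 listed for these cells. The members were chosen by their family name from the genes listed, and a gene is listed where at least 1 library held 6 or more reads of it. The family was proposed with the low Ccn3 level of fibroblasts in tumour-conditioned medium already known, so the member levels below are a description and carry no test. Ccn6, the last mouse member, is listed neither for the fibroblasts nor among the 11822 genes listed for macrophages, and the other 5 are listed for both. All 5 were among the 12401 fibroblast genes that passed the filter on low values.

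Messenger RNA was sequenced from its 3' end. All cells came from 8-week-old BALB/c mice, and no genetic change is named for any group. The fibroblasts came from mammary fat pads of 2 females per biological replicate, were expanded in culture and depleted of CD45+ and EpCAM+ cells, and grew on collagen I. They were grown with bone-marrow-derived macrophages (co-culture) in 4T1 CM (4 libraries) or in DMEM (3 libraries), or alone (mono-culture) in 4T1 CM (2 libraries) or in DMEM (3 libraries). 4T1 CM is medium in which 4T1 cells, a line from a mouse mammary tumour, had grown, and DMEM is the plain growth medium with serum. At harvest the fibroblasts were sorted as cells negative for F4/80 and CD11b, which mark macrophages, and co-cultures ran for 7 days. The sources used here do not give the harvest day of the mono-cultures, nor say whether the groups share mice.

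A second set of 14 macrophage libraries, sorted as cells positive for F4/80 and CD11b, serves as a check for fibroblast RNA. It holds macrophages co-cultured with fibroblasts in 4T1 CM (4 libraries) or DMEM (3 libraries), macrophages alone in 4T1 CM (4 libraries) and macrophages at day 0 (3 libraries). The columns taken for day 0 are headed as a culture without fibroblasts in DMEM and were matched to day 0 because no other group was left. Fibroblast libraries held 1945980 to 7632366 reads and macrophage libraries 1434695 to 4140985. All 12 fibroblast markers looked for (among them Col1a1, Dcn and Pdgfra) had reads in every fibroblast library, with a summed level of 107051 to 173868 normalized reads. Levels are the authors' normalized reads, that is, reads divided by a size factor for each library.

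The 5 genes lie on chromosome 3 (Ccn1, minus strand, chr3:145646976-145649981), chromosome 10 (Ccn2, chr10:24595442-24598683), chromosome 15 (Ccn3, chr15:54745702-54754039, and Ccn4, chr15:66891320-66923201) and chromosome 2 (Ccn5, chr2:163820861-163833146) of mm10. What makes them a family can be read in the coding sequence near the start of each protein, in the domain that resembles insulin-like growth factor binding proteins. There, each gene holds a single stretch of 8 codons with 4 cysteine codons in the same places. These stretches, from GENCODE vM21 transcripts, are shown with 12 bases on each side, the 8 codons in capitals.
Ccn1: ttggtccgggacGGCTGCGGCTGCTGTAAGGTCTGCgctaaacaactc
Ccn2: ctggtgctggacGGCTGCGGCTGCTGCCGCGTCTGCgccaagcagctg
Ccn3: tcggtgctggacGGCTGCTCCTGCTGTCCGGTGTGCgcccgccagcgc
Ccn4: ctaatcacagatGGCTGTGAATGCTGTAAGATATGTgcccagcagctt
Ccn5: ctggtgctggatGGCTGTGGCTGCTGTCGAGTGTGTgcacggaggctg

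The longest annotated coding sequences have 379 codons for Ccn1, 348 for Ccn2, 354 for Ccn3, 367 for Ccn4 and 251 for Ccn5, the member without the C-terminal domain. Cysteine codons number 38 to 40 in Ccn1 to Ccn4 and 29 in Ccn5. In global alignments of the translated sequences, Ccn1 and Ccn2 were identical at 52.6% of aligned positions, Ccn2 and Ccn3 at 52.2%, and Ccn3 and Ccn5 at 45.3%. All 10 pairs lay between 40.8% and 52.6%.

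The RefSeq promoter table used here (GRCm38.p6) holds 1 of the 5 promoters, that of Ccn1, which is shown because Ccn1 is a textbook TEAD target. The 300 bases run from 250 before to 50 after the start of the gene at chr3:145649936-145650235 on the minus strand. Capitals mark the matches to both motifs that were searched, on both strands. The first was GGAATG, the core that TEAD factors bind.
Ccn1 promoter: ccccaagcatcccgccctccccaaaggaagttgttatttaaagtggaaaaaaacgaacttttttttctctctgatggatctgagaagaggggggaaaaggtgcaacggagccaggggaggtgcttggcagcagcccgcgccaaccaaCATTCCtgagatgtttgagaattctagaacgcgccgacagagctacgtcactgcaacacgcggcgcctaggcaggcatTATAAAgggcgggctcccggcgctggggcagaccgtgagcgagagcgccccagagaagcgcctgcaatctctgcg
The TEAD core, here as its reverse complement, begins at -103 from the start of the gene. The other motif was the TATA-like TATAAA, which begins at -25 and does not overlap the first. Of 27025 promoters of this length, 14.6% hold the TEAD core and 14.2% the TATA-like element on either strand, so both matches are a description of the sequence only.

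In 4T1 CM the family split. Ccn3 and Ccn5 were far lower than in DMEM with or without macrophages, Ccn1 and Ccn2 stayed between 1599 and 6739 normalized reads in every library, and Ccn4 was lower without overlap in mono-culture but not in co-culture. In co-culture, the mean Ccn3 level in 4T1 CM was 2.37% of that in DMEM and the mean Ccn5 level 14.6%. In mono-culture the same shares were 0.713% for Ccn3 and 3.07% for Ccn5. Ccn2 had its highest mean in co-culture in 4T1 CM, 1.97 times that in co-culture in DMEM, with groups that overlapped.

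Ccn3 had 37.6, 9.13, 58.2 and 114 normalized reads in the 4 co-culture libraries in 4T1 CM, against 4527, 1725 and 666 in the 3 co-culture libraries in DMEM. In mono-culture it had 17.8 and 23.9 in 4T1 CM, against 3223, 2569 and 2973 in DMEM. Every 4T1 CM library thus lay below every DMEM library, in both cultures. The group means were 54.8 ± 44.4 (SD, n = 4) for co-culture in 4T1 CM and 2306 ± 1995 (SD, n = 3) for co-culture in DMEM. For mono-culture they were 20.8 ± 4.35 (SD, n = 2) in 4T1 CM and 2922 ± 330.3 (SD, n = 3) in DMEM. The log2 difference of 4T1 CM from DMEM was -5.42 ± 0.68 (SE) in co-culture and -7.07 ± 0.81 in mono-culture. The low values still rest on reads, 11 to 137 per library in co-culture and 9 and 29 in mono-culture.

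**Figure D1:**
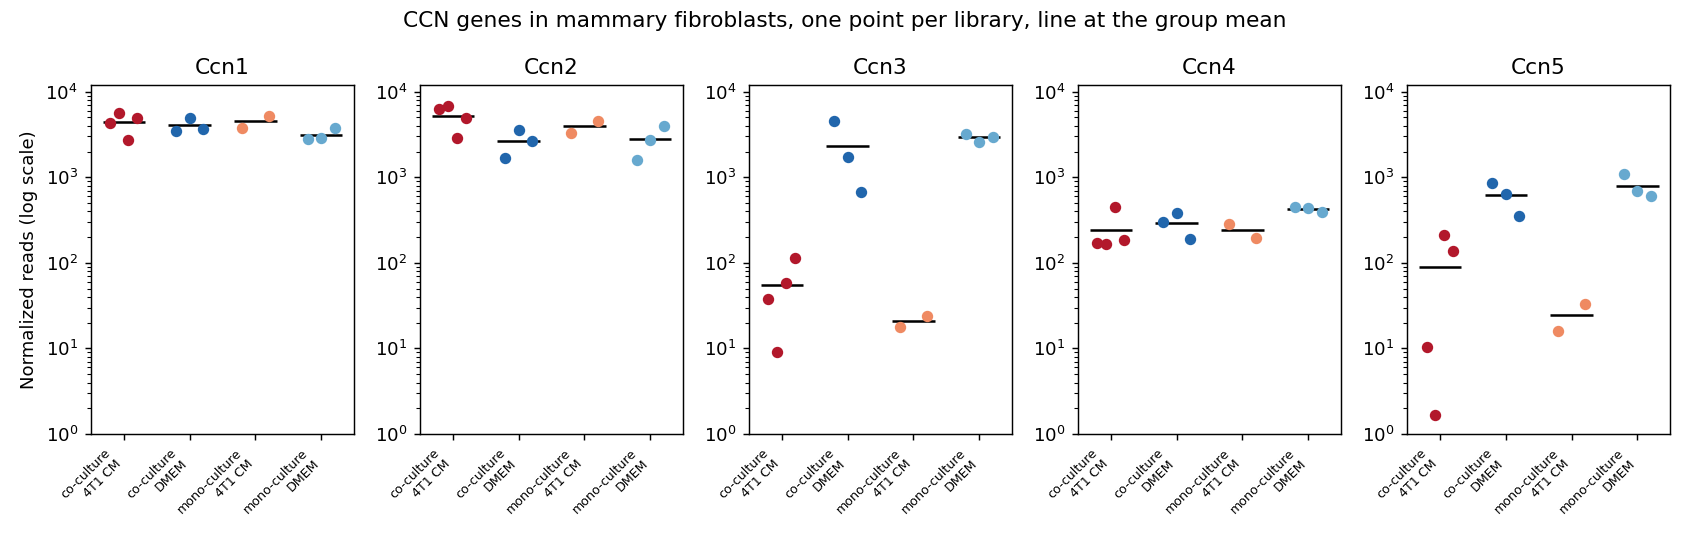
Level of each CCN gene in normalized reads (log axis) in the 12 fibroblast libraries, by culture and medium, with 1 point per library and a line at the group mean. Ccn3 and Ccn5 lie lower in every 4T1 CM library than in any DMEM library, while the levels of Ccn1, Ccn2 and Ccn4 show no such gap between the media over all 12 libraries.

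In DMEM, Ccn3 ranged from 666 to 4527 normalized reads in co-culture, against 2569 to 3223 in mono-culture. In those 3 co-culture libraries, the summed level of 14 macrophage markers was 2479, 3699 and 5762 normalized reads, in the order in which Ccn3 was 4527, 1725 and 666. The library with the most macrophage marker RNA thus had the least Ccn3, and the part of these reads in the result was not tested. In these bulk libraries, fewer cells of a type and less RNA per cell cannot be told apart. Without co-culture in DMEM replicate 3, the log2 difference in co-culture was -6.11, and without replicate 1 of that group it was -4.73. Without co-culture in 4T1 CM replicate 2 it was -4.76.

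Ccn5 had 10.4, 1.66, 209 and 138 normalized reads in the 4 co-culture libraries in 4T1 CM, against 862, 633 and 353 in the 3 co-culture libraries in DMEM. In mono-culture it had 15.8 and 33.0 in 4T1 CM, against 1081, 701 and 600 in DMEM. Again no 4T1 CM library reached the lowest DMEM library. The group means were 90.0 ± 101.2 (SD, n = 4) for co-culture in 4T1 CM, 616.3 ± 254.9 (SD, n = 3) for co-culture in DMEM, 24.4 ± 12.2 (SD, n = 2) for mono-culture in 4T1 CM and 794.1 ± 253.8 (SD, n = 3) for mono-culture in DMEM. The spread within co-culture in 4T1 CM was the widest of any member in any fibroblast group as the ratio of the highest to the lowest level, from 2 reads in replicate 2 to 241 reads in replicate 3. The log2 difference of 4T1 CM from DMEM was -4.24 ± 1.11 (SE) in co-culture and -5.01 ± 1.33 in mono-culture. In co-culture it was -3.06 without 4T1 CM replicate 2, -5.16 without replicate 3 and -4.96 without replicate 4, and edgeR and DESeq2 on reads gave -2.75 and -2.78. The direction was the same in all of these, which leaving out a library could not have changed in groups without overlap.

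The order of these libraries was not that of Ccn3. Replicate 3 of co-culture in 4T1 CM had the most Ccn5 and replicate 4 the most Ccn3, and the ratio of Ccn3 to Ccn5 was 3.60, 5.50, 0.278 and 0.825 over the 4 libraries. In co-culture in DMEM the ratio was 5.25, 2.73 and 1.88, in mono-culture 1.13 and 0.725 in 4T1 CM and 2.98, 3.67 and 4.95 in DMEM. The ratio of 2 genes within a library does not depend on its size factor. It was below 1.88, the lowest value in DMEM, in 4 of the 6 libraries in 4T1 CM. Some ratios in 4T1 CM rest on few reads, such as 11 over 2 for 5.50 in co-culture and 9 over 8 for 1.13 in mono-culture. The count is thus a description only.

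Across the 12 libraries, Ccn3 and Ccn5 had a Pearson r of 0.92 on log2 levels, and 0.81 after the group means were taken off. Ccn1 and Ccn2 had 0.76 and 0.83. These correlations describe libraries that share groups, depth and normalization.

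Markers of some other cell types were, like Ccn3 and Ccn5, lower in 4T1 CM than in DMEM. The 11 listed Schwann cell and glial markers of 12 looked for summed to 178.5 to 1201 normalized reads in co-culture in 4T1 CM, against 1482 to 3063 in co-culture in DMEM. In mono-culture they summed to 189.7 to 201.4 in 4T1 CM, against 1517 to 1880 in DMEM. Within groups the order of libraries could differ. In co-culture in DMEM the glial sum was 2446, 1482 and 3063, where Ccn3 was 4527, 1725 and 666. In co-culture in 4T1 CM, replicate 4 had the highest glial sum and the most Ccn3. Of the 11, 8 to 11 had reads in co-culture in 4T1 CM and 11 in co-culture in DMEM, while 6 had reads in mono-culture in 4T1 CM and 10 or 11 in mono-culture in DMEM. Gfap and Cdh19 had none in both libraries of mono-culture in 4T1 CM, Ngfr and Foxd3 had none in replicate 1, and Sox10 had none in replicate 2. Such a sum is not particular to glial cells. The 6 of these markers listed for macrophages summed to 366.6 to 435.7 normalized reads in macrophages alone in 4T1 CM and 406.1 to 457.8 at day 0.

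The 10 listed skeletal muscle markers of 12 looked for summed to 270.4 to 570.9 normalized reads in co-culture in 4T1 CM, against 952.8 to 1803 in co-culture in DMEM. In mono-culture they summed to 84.9 and 85.0 in 4T1 CM, against 691.6 to 3596 in DMEM, and Myod1 and Myog had no reads in either mono-culture library in 4T1 CM. Of these markers, 9 or 10 had reads in each co-culture library, 5 to 7 in mono-culture in 4T1 CM and 10 in mono-culture in DMEM. In mono-culture in DMEM the muscle sum was highest in replicate 2, at 3596, where Ccn3 was lowest, at 2569. The 3 listed mural cell markers of 7 summed to 170.3 to 293.2 in co-culture in 4T1 CM, against 500.9 to 643.0 in co-culture in DMEM, and to 171.8 to 202.9 in mono-culture in 4T1 CM, against 311.0 to 358.1 in DMEM. Among them, Notch3 went the other way in mono-culture, with a mean of 154.5 in 4T1 CM, against 70.3 in DMEM. In co-culture its mean was 144.8 in 4T1 CM, against 210.6 in DMEM. The part of these cell types in the Ccn3 and Ccn5 levels was not tested.

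**Figure D2:**
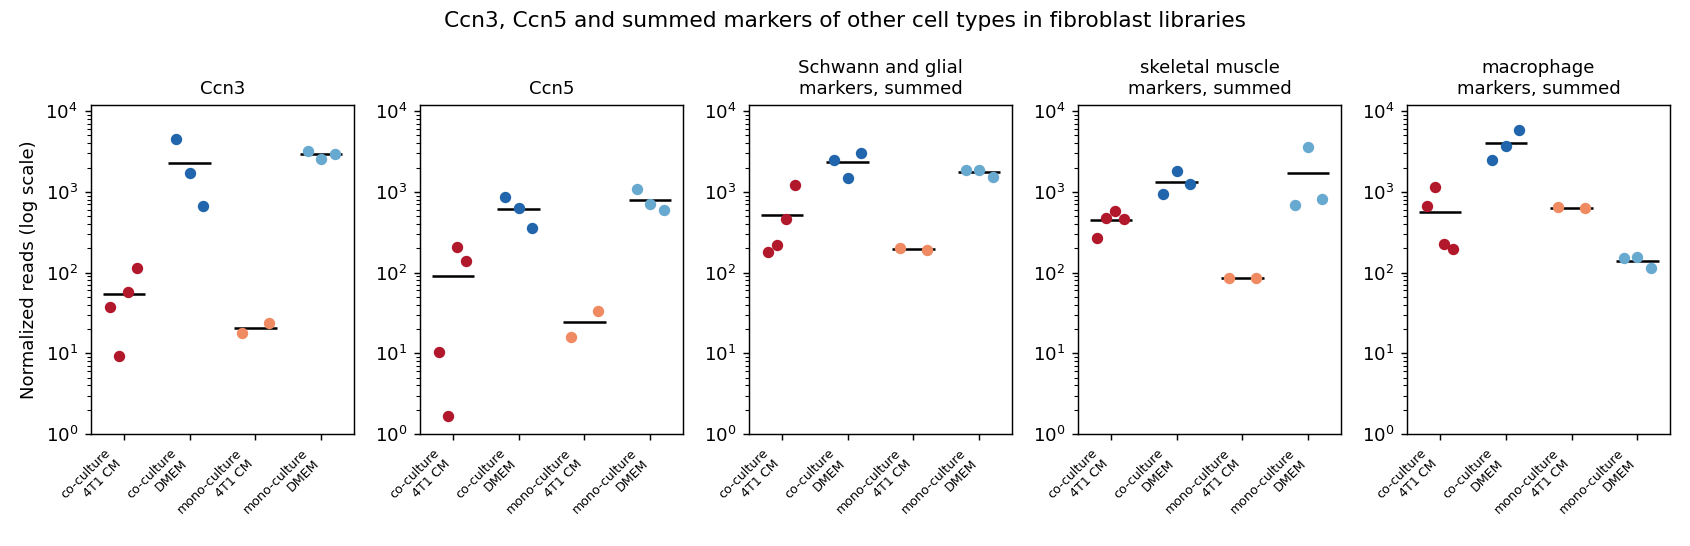
Ccn3, Ccn5 and the summed levels of Schwann and glial, skeletal muscle and macrophage markers, in normalized reads (log axis), with 1 point per fibroblast library and a line at the group mean. The glial and muscle sums, like Ccn3 and Ccn5, are lower in every 4T1 CM library than in any DMEM library, and the macrophage sum is highest in co-culture in DMEM.

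The macrophage markers (14 of 14 listed) did not follow the medium in the same way. They summed to 193.3 to 1152 normalized reads in co-culture in 4T1 CM, against 2479 to 5762 in co-culture in DMEM. In mono-culture the sum was 622.8 and 651.5 in 4T1 CM, against 112.4 to 156.3 in DMEM. Ccn3 and Ccn5 were lower in 4T1 CM in both cultures, while the macrophage sum was lower in co-culture and higher in mono-culture. The endothelial sum (10 of 10 listed) was 66.0 to 155.6 in co-culture in 4T1 CM, 201.5 to 566.0 in co-culture in DMEM, 124.4 to 150.1 in mono-culture in 4T1 CM and 107.6 to 132.4 in mono-culture in DMEM. The epithelial sum (4 of 7 listed) was 65.0 to 386.1 in co-culture in 4T1 CM, 171.9 to 322.1 in co-culture in DMEM, 109.7 and 124.4 in mono-culture in 4T1 CM and 38.9 to 132.0 in mono-culture in DMEM. The single listed adipocyte marker of 6, Fabp4, was between 47.6 and 223.2 in every library. Their part in the results was not tested either.

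Ccn1 was at 4318, 5633, 2716 and 4916 normalized reads in co-culture in 4T1 CM, against 3500, 4960 and 3632 in co-culture in DMEM. In mono-culture it was at 3784 and 5213 in 4T1 CM, against 2804, 2893 and 3723 in DMEM. The co-culture groups overlapped, and in mono-culture both 4T1 CM libraries lay above the 3 DMEM libraries, the nearer pair by 3784 against 3723. The log2 difference of 4T1 CM from DMEM was 0.09 ± 0.23 (SE) in co-culture and 0.51 ± 0.27 in mono-culture.

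Ccn2 was at 6287, 6739, 2887 and 4882 normalized reads in co-culture in 4T1 CM, against 1687, 3582 and 2666 in co-culture in DMEM. Replicate 3 in 4T1 CM, at 2887, lay within the DMEM range and the other 3 lay above it. The means were 5199 ± 1732 (SD, n = 4) in 4T1 CM and 2645 ± 947.7 (SD, n = 3) in DMEM. In mono-culture Ccn2 was at 3293 and 4586 in 4T1 CM, against 1599, 2737 and 3958 in DMEM, so the groups overlapped. The log2 difference was 0.97 ± 0.34 (SE) in co-culture and 0.59 ± 0.41 in mono-culture. The ratio of Ccn2 to Ccn1 was 0.993 to 1.46 in co-culture in 4T1 CM and 0.482 to 0.734 in co-culture in DMEM, groups that did not overlap. In mono-culture it was 0.870 and 0.880 in 4T1 CM, against 0.570 to 1.06 in DMEM, groups that did.

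The ratio of Ccn3 to Ccn2, genes with opposed actions in many settings, was at or below 0.0234 in all 6 libraries in 4T1 CM and between 0.25 and 2.68 in the 6 libraries in DMEM. It was 2.68, 0.482 and 0.25 in co-culture in DMEM, and 2.02, 0.938 and 0.751 in mono-culture in DMEM.

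Ccn4 was at 169, 166, 452 and 184 normalized reads in co-culture in 4T1 CM, against 296, 383 and 189 in co-culture in DMEM. Replicate 3 in 4T1 CM was above every co-culture library in DMEM and the other 3 were below all of them. In mono-culture Ccn4 was at 286 and 194 in 4T1 CM, against 445, 439 and 390 in DMEM, with no overlap. The log2 difference was -0.34 ± 0.32 (SE) in co-culture and -0.84 ± 0.38 in mono-culture.

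**Figure D3:**
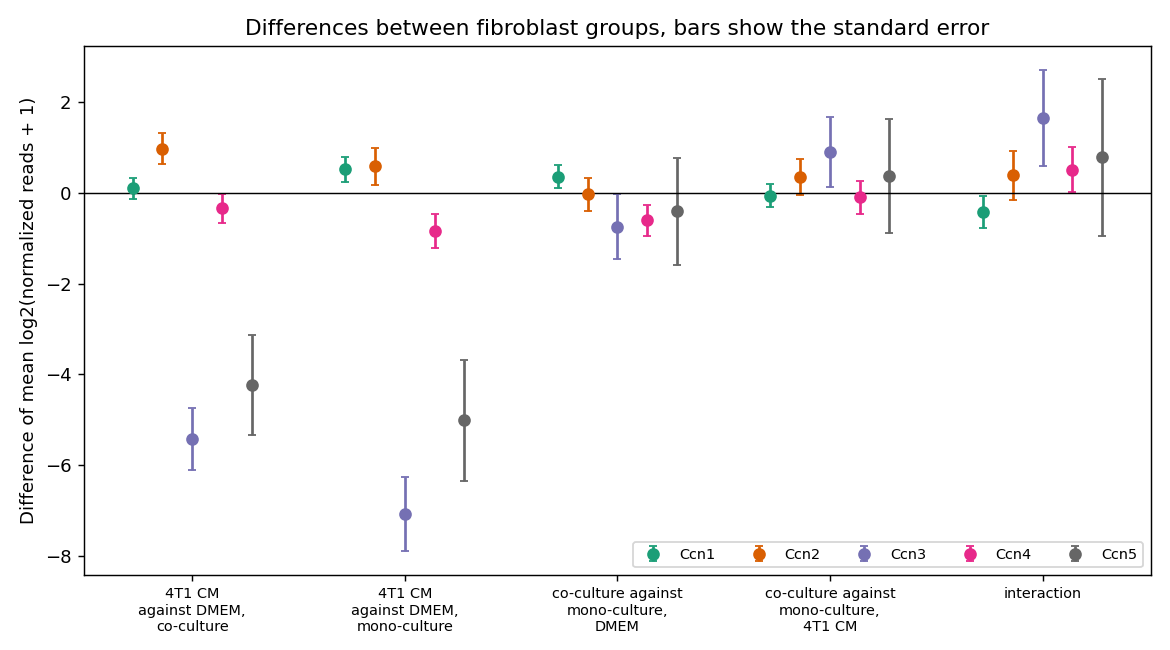
Difference of mean log2(normalized reads + 1) for each CCN gene in the 4 comparisons of fibroblast groups and in the interaction, which is the 4T1 CM difference in co-culture minus that in mono-culture. Points are the estimates of a linear model over 12 libraries and bars their standard errors. The Ccn3 differences of -5.42 and -7.07 and the Ccn5 differences of -4.24 and -5.01 for 4T1 CM in co-culture and mono-culture stand apart from all others.

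Read against the rest of the genes, a group that does not overlap with another is common in so few libraries. In co-culture, 9.13% of the 12401 genes tested lay lower in every 4T1 CM library than in all 3 DMEM libraries and 7.06% lay higher, and of the 5 members 2 lay lower and none higher. In mono-culture, 23.8% of genes lay lower and 22.8% higher without overlap, and 3 of the 5 members lay lower and 1 higher. Since earlier results of these groups were known when the family was proposed, nothing is read from these counts.

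For Ccn3 and Ccn5, co-culture differed from mono-culture by less than 1.5 standard errors in either medium. In DMEM, the log2 difference of co-culture from mono-culture was 0.35 ± 0.25 (SE) for Ccn1, -0.03 ± 0.36 for Ccn2, -0.75 ± 0.72 for Ccn3, -0.60 ± 0.34 for Ccn4 and -0.41 ± 1.19 for Ccn5. Ccn4 alone had groups that did not overlap, with 296, 383 and 189 normalized reads in co-culture, against 445, 439 and 390 in mono-culture. Without overlap, 8.42% of all genes lay lower and 10.4% higher in this comparison. In 4T1 CM the differences were -0.07 ± 0.26 for Ccn1, 0.35 ± 0.39 for Ccn2, 0.90 ± 0.77 for Ccn3, -0.10 ± 0.36 for Ccn4 and 0.36 ± 1.26 for Ccn5. Some of these had no stable direction. In 4T1 CM that of Ccn5 was -0.56 to 1.54 without 1 library, lowest without co-culture in 4T1 CM replicate 3 and also below 0 without replicate 4 of that group or mono-culture in 4T1 CM replicate 1. Without 1 library, those of Ccn1 and Ccn4 in 4T1 CM were -0.30 to 0.17 and -0.44 to 0.18, and that of Ccn2 in DMEM was -0.38 to 0.27. All 5 members overlapped there, where 7.18% of all genes lay lower and 7.86% higher without overlap. The interaction was 1.65 ± 1.05 for Ccn3, that is, the 4T1 CM difference was nearer to 0 in co-culture, and -0.42 ± 0.36, 0.38 ± 0.53, 0.51 ± 0.50 and 0.77 ± 1.73 for Ccn1, Ccn2, Ccn4 and Ccn5.

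Ordered by mean level, Ccn3 was highest in mono-culture in DMEM, then co-culture in DMEM, co-culture in 4T1 CM and mono-culture in 4T1 CM. Ccn5 had the same order, and in both genes the neighbours overlapped except at the step between the media. Ccn4 followed the same order, with means of 424.4, 289.8, 242.8 and 240.1 normalized reads and overlap below the first group. For Ccn1 the order was mono-culture in 4T1 CM, co-culture in 4T1 CM, co-culture in DMEM and, lowest, mono-culture in DMEM, with means of 4499, 4396, 4031 and 3140. For Ccn2 it was co-culture in 4T1 CM, mono-culture in 4T1 CM, mono-culture in DMEM and co-culture in DMEM, with means of 5199, 3939, 2765 and 2645. All neighbours overlapped in both genes.

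The genes whose levels followed each member most closely over the 12 libraries were found by Pearson r of log2 levels among the other genes tested. For Ccn3 they were Selenos (r = 0.98), which encodes a selenoprotein of the endoplasmic reticulum, Sox9 (0.98), a transcription factor of cartilage and other lineages, and Eln (0.98), which encodes elastin. Sox9 averaged 45.8 normalized reads in co-culture in 4T1 CM, against 153.9 in co-culture in DMEM, and 35.1 in mono-culture in 4T1 CM, against 175.1 in DMEM. Eln averaged 2.39 and 89.1 in the co-cultures in 4T1 CM and DMEM, and 0.825 and 46.7 in the mono-cultures in 4T1 CM and DMEM.

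For Ccn5 the closest were Pcsk6 (r = 0.98), a proprotein convertase, Sfrp1 (0.98), a secreted Wnt antagonist, and Col6a3 (0.98), a chain of collagen VI. Sfrp1 averaged 1924 normalized reads in co-culture in 4T1 CM, against 6296 in co-culture in DMEM, and 1262 in mono-culture in 4T1 CM, against 9952 in DMEM. The deviations of these 3 from their group means had r of 0.95, 0.96 and 0.94 with those of Ccn5. For Selenos, Sox9 and Eln with Ccn3 these values were 0.86, 0.79 and 0.91. The genes were picked by r over the same libraries, so these values are no further support.

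For Ccn2 the closest were Farsb (r = 0.94), a subunit of phenylalanyl-tRNA synthetase, Pmpca (0.93), a subunit of the mitochondrial processing peptidase, and Maff (0.92), a small Maf transcription factor. Maff averaged 240.8 normalized reads in co-culture in 4T1 CM, against 137.0 in co-culture in DMEM, and 230.6 in mono-culture in 4T1 CM, against 137.8 in DMEM. For Ccn1 they were D6Ertd527e (0.91), at under 4 normalized reads in every group mean, Fars2 (0.88) and Atrip (0.87). For Ccn4 they were Ranbp10 (0.95), Zfp326 (0.92) and Fut8 (0.91). None of the other CCN genes was among the 3 closest of any member.

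In macrophages, the CCN genes were near 0 wherever no fibroblasts were present. In the 7 libraries of macrophages alone in 4T1 CM or at day 0, Ccn1 had 0 to 6 reads per library, Ccn2 0 to 5, Ccn3 0 to 2 and Ccn5 0 to 4. Ccn4 had 0 reads in all 7, and the 95% Poisson interval of a count of 0 reaches up to 3.69 reads in a library. In macrophages sorted from co-cultures with fibroblasts, Ccn1 had 32, 97, 333 and 69 reads in 4T1 CM, against 23, 41 and 208 in DMEM, and Ccn2 had 25, 100, 525 and 86 in 4T1 CM, against 12, 35 and 213 in DMEM. Ccn3 had 0, 0, 4 and 0 reads in 4T1 CM, against 22, 20 and 159 in DMEM. Ccn5 had 1, 0, 1 and 0 reads in 4T1 CM, against 14, 10 and 60 in DMEM. Ccn4 had 1, 9, 18 and 8 reads in 4T1 CM, against 3, 7 and 23 in DMEM.

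These reads can be set beside fibroblast RNA in the same libraries. The median level of the 12 fibroblast markers, in percent of their level in fibroblasts of the same culture and medium, was 2.86, 3.09, 22.0 and 6.40 in the 4 macrophage libraries from co-culture in 4T1 CM. It was 2.25, 1.94 and 6.41 in the 3 from co-culture in DMEM. On the same scale, Ccn1 was at 2.03, 2.73, 17.9 and 2.08% in 4T1 CM and at 0.962, 1.62 and 4.93% in DMEM. Ccn2 was at 1.34, 2.38, 23.9 and 2.18% in 4T1 CM and at 0.767, 2.11 and 7.71% in DMEM. Of the 35 values of the 5 members in these 7 libraries, 27 lay within the range of the 12 markers. That range was wide. It began at 0% in 4T1 CM replicate 1 and DMEM replicates 1 and 3, where Lum had no reads, and was 14.6 to 50.4% in 4T1 CM replicate 3. Ccn3 with 0 reads in 4T1 CM replicate 1 thus counts as within, and the count is a description only. Ccn5 lay within the range of the markers in 3 of 7 libraries, which in 4T1 CM rests on 0 or 1 read. In DMEM replicate 1, Ccn5 had 14 reads and lay at 3.81%, above the highest marker at 3.66%. The library with the largest share of fibroblast markers in each medium was also the one with the most Ccn1 and Ccn2 reads.

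In macrophage libraries from co-culture, Ccn3 was thus at 0 to 4 reads in 4T1 CM and at 20 to 159 in DMEM, and the 4T1 CM library with 4 reads had the largest share of fibroblast markers, 22.0%. The labels do not say whether the fibroblasts and macrophages with the same number came from the same dish, so these libraries are not read as an independent repeat.

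**Figure D4:**
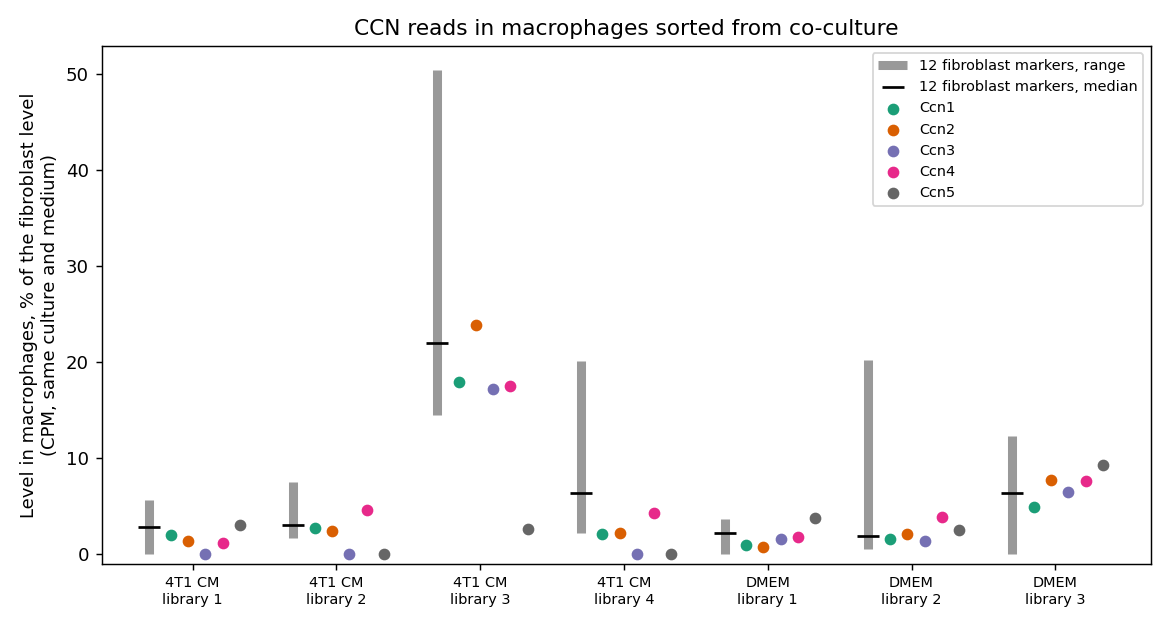
Level of each CCN gene in macrophages sorted from co-culture, in percent of its level in co-cultured fibroblasts in the same medium (both as CPM, reads scaled to a common library total), for 7 libraries. Grey bars give the range and black marks the median of 12 fibroblast markers. Replicate 3 in 4T1 CM has the highest marker median, 22.0%, and the highest values of Ccn1, Ccn2, Ccn3 and Ccn4. Its Ccn5 value of 2.62%, from 1 read, lies below its lowest marker, 14.6%. In replicate 4 in 4T1 CM, Ccn1 at 2.08% and Ccn2 at 2.18% lie below the lowest marker, 2.24%.

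The pathways that the family belongs to were followed in 8 gene lists without CCN genes, 119 distinct genes of which 106 could be tested. Here limma with Benjamini-Hochberg adjustment over all 12401 genes was used, and a gene was called at an adjusted p under 0.05. In co-culture, 2.33% of all genes were called higher in 4T1 CM and 3.52% lower. In mono-culture, 6.36% were called higher and 6.93% lower. Of the 106, 5 rose and 10 fell in co-culture in 4T1 CM, and 8 rose and 16 fell in mono-culture. The lists overlap in Tgfb2, Lats2, Amotl2 and Notch1.

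Of the 20 YAP/TAZ-TEAD targets, none rose and 3 fell in 4T1 CM in co-culture, and 3 rose and 2 fell in mono-culture. The median log2 difference was 0.14 in co-culture and 0.03 in mono-culture, against -0.01 over all genes in both. Igfbp3, a binding protein of insulin-like growth factors, fell in both cultures, to 394 ± 268 normalized reads in co-culture in 4T1 CM, against 2298 ± 1257 in co-culture in DMEM, and to 242 ± 24.6 in mono-culture in 4T1 CM, against 1871 ± 78.3 in DMEM (SD, n = 4, 3, 2 and 3). Its log2 differences were -2.61 ± 0.46 (adjusted p = 0.0052, limma) and -2.95 ± 0.55 (adjusted p = 0.0042, limma). Nt5e, the ecto-5'-nucleotidase CD73, rose in mono-culture by 4.17 ± 1.00 on the log2 scale (adjusted p = 0.015, limma), and was at 101 and 53.6 normalized reads in 4T1 CM, against 2.05, 8.12 and 1.54 in DMEM. Arhgef17, a guanine nucleotide exchange factor, rose in mono-culture by 0.98 ± 0.24. In co-culture Ccdc80, a matrix protein gene, fell by 1.10 ± 0.23, and Tgfb2, a TGF-beta ligand, had 10.4, 7.47, 5.21 and 15.8 normalized reads in 4T1 CM, against 43.9, 68.6 and 22.9 in DMEM. Igfbp3 and Ccdc80 kept these calls without any 1 library. Those of Nt5e and Arhgef17 were lost without mono-culture in 4T1 CM replicate 1 or in DMEM replicate 1, and that of Arhgef17 also without 4T1 CM replicate 2 (adjusted p up to 0.13 and 0.090, limma). That of Tgfb2 was lost without co-culture in DMEM replicate 1 or 2 (up to 0.057).

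The Hippo pathway and TEAD factors carry the signal to YAP and TAZ. Of 19 tested of 20, 0 were called in co-culture and 1 fell in mono-culture, with medians of 0.05 and -0.07. Over all genes, 2.33% were called higher and 3.52% lower in co-culture, and 6.36% and 6.93% in mono-culture. In a list of 19 genes these counts are near such shares and are not read as a trait of the list. In co-culture 1 gene had an unadjusted p under 0.05 in limma, and edgeR and DESeq2 called 0. In mono-culture 2 had an unadjusted p under 0.05 in limma, edgeR called 0 and DESeq2 2. Sav1, a scaffold of the Hippo kinases, fell in mono-culture by 0.74 ± 0.23 (adjusted p = 0.049, limma), a call that was lost when any 1 library was left out except co-culture in 4T1 CM replicates 2 and 4 and mono-culture in DMEM replicate 3 (adjusted p 0.032 to 0.16). In co-culture the smallest p values were those of Sav1, at a log2 difference of -0.65 ± 0.19, and Vgll3, a TEAD cofactor, at 0.65 ± 0.32.

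Of the SRF/MRTF and contractile targets, which share serum response factor with Ccn1 and Ccn2, none rose and 4 of 15 fell in 4T1 CM in co-culture, and none rose and 7 of 15 fell in mono-culture. The median log2 differences were -0.51 and -0.63. Actg2, the smooth muscle gamma-actin, averaged 33.7 normalized reads in co-culture in 4T1 CM, against 196 in co-culture in DMEM, and 16.5 in mono-culture in 4T1 CM, against 265 in DMEM. Its log2 differences were -2.42 ± 0.37 in co-culture and -4.10 ± 0.44 in mono-culture (adjusted p = 0.0021 and 0.00014, limma). Fhl2, a LIM protein of the actin cytoskeleton, fell by 1.14 ± 0.27 in co-culture and by 2.30 ± 0.32 in mono-culture. Cnn1, calponin, fell by 2.23 ± 0.40 in mono-culture, and Acta2, smooth muscle actin, fell by 1.30 ± 0.33 in co-culture. Leaving out 1 library, the number called was 3 to 7 in mono-culture, lowest without 4T1 CM replicate 1, and 4 without DMEM replicate 2 or 3. In co-culture it was 1 to 5, lowest without 4T1 CM replicate 1 or 2 or DMEM replicate 2, and 2 without DMEM replicate 1 or 3 or mono-culture in DMEM replicate 3. It was also 1 with only the groups compared in the fit. Actg2 kept its calls throughout, as did Fhl2 and Cnn1 in mono-culture. In co-culture Acta2 was lost in these 6 fits (adjusted p up to 0.15, limma), and Fhl2 without 4T1 CM or DMEM replicate 1 or 2 (up to 0.11). The means of Ccn1 and Ccn2 were higher in 4T1 CM than in DMEM in both cultures.

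The TGF-beta early targets had calls in the other direction. Of 14, 3 rose and 0 fell in co-culture and 2 rose and 0 fell in mono-culture, with medians of 0.10 and 0.36. Ltbp2, a matrix protein of the latent TGF-beta binding family, rose by 1.37 ± 0.27 in co-culture and 3.08 ± 0.32 in mono-culture (adjusted p = 0.0095 and 0.00011, limma), and averaged 2212 normalized reads in co-culture in 4T1 CM, against 863 in co-culture in DMEM, and 3139 in mono-culture in 4T1 CM, against 393 in DMEM. Cdkn1a, the cell cycle inhibitor p21, rose by 0.69 ± 0.18 in co-culture. Without co-culture in DMEM replicate 1, 0 of the 3 calls in co-culture were left (adjusted p up to 0.063 for Ltbp2 and 0.16 for Cdkn1a, limma). Cdkn1a was lost also without 4T1 CM replicate 1 or 2 or DMEM replicate 3. In mono-culture Ltbp2 kept its call without any 1 library. Ccn2, a further target of this pathway, lay higher on average in 4T1 CM in both cultures, within groups that overlapped.

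Of 12 TGF-beta ligands, receptors and Smads, 1 rose and 3 fell in co-culture and none rose and 2 fell in mono-culture, with medians of 0.02 and -0.22. Tgfb3, a ligand, fell by 0.92 ± 0.21 in co-culture and fell by 1.47 ± 0.25 in mono-culture. Tgfbr2, the receptor that binds the ligands, fell by 1.15 ± 0.22 in co-culture and by 1.15 ± 0.27 in mono-culture. Tgfb2 fell by 2.07 ± 0.42 in co-culture. Kept without any 1 library were Tgfb3 in mono-culture and Tgfbr2 in co-culture. Tgfbr2 in mono-culture was lost without 4T1 CM replicate 1 or 2 or DMEM replicate 1 (adjusted p up to 0.076, limma), and Tgfb3 in co-culture without 4T1 CM replicate 1 or DMEM replicate 1 or 2 (up to 0.11).

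Of 15 tested of 16 CCN receptors and binding partners, 1 rose and 0 fell in co-culture and 2 rose and 2 fell in mono-culture, with medians of -0.02 and 0.27. Itgb3, the beta-3 integrin chain that pairs with the alpha-v chain to bind Ccn1, Ccn2 and Ccn3, averaged 169 ± 33.4 normalized reads in co-culture in 4T1 CM, against 94.8 ± 11.9 in co-culture in DMEM, and 179 ± 9.89 in mono-culture in 4T1 CM, against 53.2 ± 16.7 in DMEM. It rose by 0.81 ± 0.21 in co-culture and 1.77 ± 0.25 in mono-culture on the log2 scale (adjusted p = 0.033 and 0.00072, limma). Itga6, the alpha-6 chain, which with beta-1 binds Ccn1 on fibroblasts, fell by 2.99 ± 0.61 in mono-culture. Itga8 fell in mono-culture too, from a low level, with 0 and 0.825 normalized reads in 4T1 CM, against 9.21, 12.2 and 9.24 in DMEM. Both calls were lost without mono-culture in 4T1 CM replicate 1 (adjusted p up to 0.087 for Itga6 and 0.055 for Itga8, limma). Itgb3 kept its call in mono-culture and lost it in co-culture without 4T1 CM replicate 2 or 4 or any 1 DMEM library (up to 0.12).

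Wnt and Notch genes close the set. Of 8 tested of 14 Wnt/beta-catenin targets, the pathway that gave Ccn4 and Ccn5 their Wisp names, none rose and 1 fell in each culture, with medians of -0.56 in co-culture and -0.38 in mono-culture. That gene was Lgr5, a receptor for R-spondins, at 1.33 ± 1.09 normalized reads in co-culture in 4T1 CM, against 16.4 ± 19.9 in DMEM, and at 0 reads in both mono-culture libraries in 4T1 CM, against a mean of 44.5 ± 3.23 normalized reads in DMEM. Its call was kept in mono-culture without any 1 library, and in co-culture it was lost without any except co-culture in 4T1 CM replicate 3 or in DMEM replicate 3 (adjusted p up to 0.23, limma). Of 7 tested of 12 Notch receptors, ligands and targets, 0 were called in co-culture and 1 rose and 1 fell in mono-culture, with medians of -0.57 and -0.29. In co-culture 4 had an unadjusted p under 0.05 in limma, edgeR called 0 and DESeq2 1. Notch3 rose in mono-culture by 1.12 ± 0.28. Heyl, a Notch target, fell in mono-culture, at 0 in both libraries in 4T1 CM, against a mean of 6.37 ± 5.05 normalized reads in DMEM. Both calls were lost without mono-culture in 4T1 CM replicate 2 or in DMEM replicate 2, and that of Heyl also without 4T1 CM replicate 1 (adjusted p up to 0.13 for both, limma). In co-culture Jag1, a Notch ligand, was at a log2 difference of -1.44 ± 0.40 and Heyl at -2.16 ± 0.61 (adjusted p = 0.053 and 0.054, limma).

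**Figure D5:**
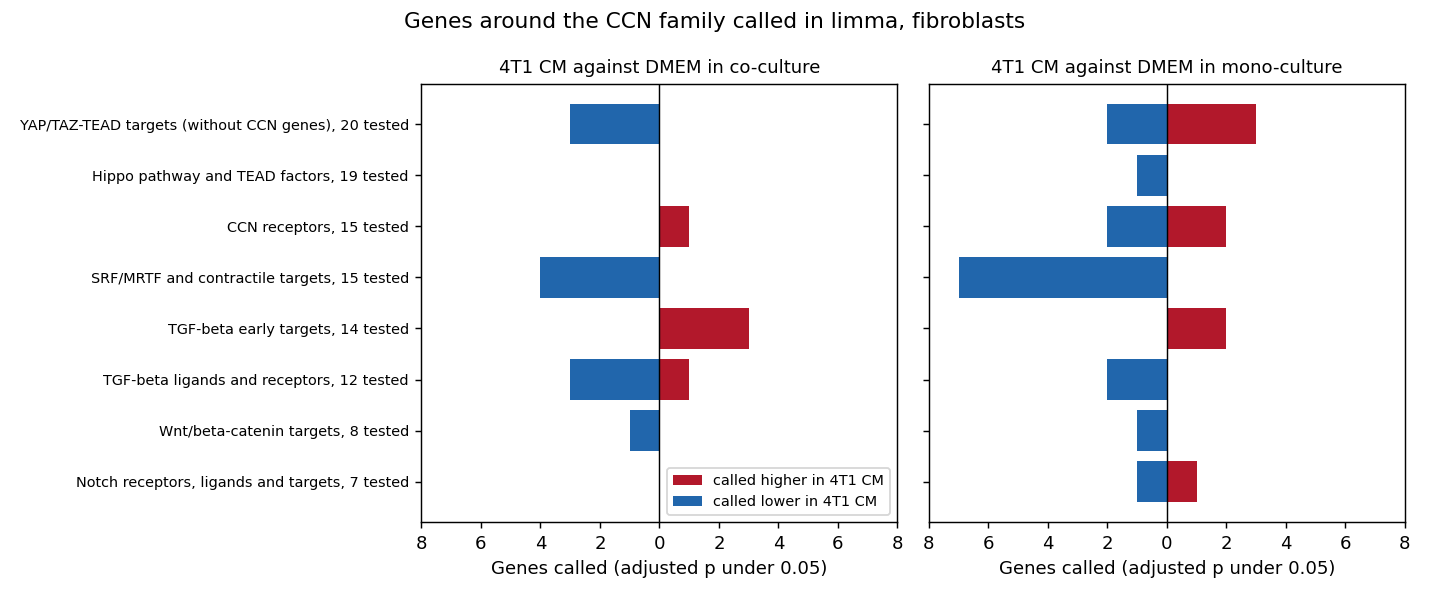
Number of genes called higher (right, red) or lower (left, blue) in 4T1 CM than in DMEM at an adjusted p under 0.05 in limma, for 8 pathway lists without CCN genes, in co-culture and mono-culture. The contractile list has 4 and 7 genes called lower and none higher, and the TGF-beta early targets 3 and 2 called higher and none lower.

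Growing with macrophages moved few genes of any kind, and the pathway genes were called at about the share of all genes. In DMEM, 0.855% of all genes were called higher in co-culture than in mono-culture and 0.145% lower, and of the 106 pathway genes 1 rose and 0 fell. That gene was Notch3, which is also on the mural cell list, at 211 ± 44.6 normalized reads in co-culture, against 70.3 ± 11.2 in mono-culture (log2 difference 1.56 ± 0.25, adjusted p = 0.015, limma; 0.066 at most without 1 library, the call being lost without co-culture replicate 2 or mono-culture replicate 2 or 3). In 4T1 CM, 0.0242% of all genes were called higher and 0% lower, and none of the 106, where 13 had an unadjusted p under 0.05 in limma and edgeR and DESeq2 called 0. For the interaction, 0.0323% of all genes were called higher and 0.113% lower, and none of the 106, where 14 had an unadjusted p under 0.05 in limma, edgeR called 0 and DESeq2 2. Among the CCN receptors, the smallest p values were those of Itgam, the alpha chain of a macrophage integrin that the sort selects against, at a log2 difference of 4.15 ± 0.99, and Itgb3 at 0.86 ± 0.22 in DMEM. In 4T1 CM they were those of Itga6 at 2.18 ± 0.58 and Itga8 at 1.85 ± 0.55, and in the interaction those of Itga8 at 2.90 ± 0.75 and Itgb3 at -0.96 ± 0.32. None of these 6 passed the test.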

How the data were processed

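Sequenced were 12 fibroblast and 14 macrophage libraries by 3' end RNA-seq, and groups follow the labels. Per the submitters' processing notes the tools were bcl2fastq, STAR 2.4.2a and HTSeq with the build mm10, without roles. The authors deposited raw counts per gene for macrophages and, for both cell types, a normalized signal, counts divided by a size factor per library. Every value gave whole reads within 0.001 reads after that factor was undone (100% of values), and edgeR on the recovered reads called 741 genes for 4T1 CM in co-culture and 1411 in mono-culture, against 725 and 1648 in limma. Columns of unused per-sample values numbered 0.

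The CCN members and the gene lists were chosen with earlier results of these data known. Differences are from limma 3.58.1 in R 4.3.3 (trend, two-sided) on log2 of the signal plus a pseudocount of 1, with 12 libraries in 1 fit, for the 12401 genes that reached 5 in 2 or more libraries. Such differences understate the change of low genes. The step was tested on simulated data. p-values measure the spread between these libraries, and reads may not be independent molecules. Alternatives were other pseudocounts, filters and scalings, edgeR 4.0.16, DESeq2 1.42.0, a replicate block, fits of the compared groups only and leaving out each library. Named were all members, up to 3 called genes per list and comparison (in a list with none, 2 with the smallest p, given for the culture comparisons from the receptor list only), and the 3 genes most like each member. Promoters matched for 1 of 5 members. Fibroblast markers in macrophages are in percent of CPM in co-cultured fibroblasts of the same medium. Some genes of the lists are counted but not reported here by name.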

Additional observations from a re-analysis of the deposited data

Results flagged for a closer look

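In 5 sets, each of 1 gene in a group of 4 libraries, 1 library stood far from the other 3. Looked at were 14 such sets with a value in the table. Chance would give about 1 in 20 only for independent sets of evenly measured values. These sets share libraries, and some flags rest on 4 reads against 0, so the number of flags is not set against chance. In macrophages from co-culture in 4T1 CM, replicate 3 had 530 normalized reads of Ccn1, against 60.0 to 83.3 in the other 3 libraries. The same library had 836 of Ccn2, against 46.9 to 85.9. It had 6.37 of Ccn3, which is 4 reads, against 0 in the others. Its fibroblast markers were at a median of 22.0% of their level in fibroblasts, against 2.86 to 6.40% in the others, and the part of fibroblast RNA in these values was not tested further.

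In fibroblasts from co-culture in 4T1 CM, replicate 3 had 452 normalized reads of Ccn4, against 166 to 184 in the other 3. In macrophages alone in 4T1 CM, replicate 3 had 3.45 of Ccn5, which is 4 reads, against 0 in the others.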

How the results depend on the processing

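The 25 log2 differences of the 5 members gave 245 values under other settings and 300 without 1 library. All moved by less than 1 SD of the libraries, a wide margin for leaving out 1 library, so this is a weak check. Differences whose groups did not overlap kept their direction, which leaving out 1 library could not have changed. Among the others, the Ccn5 difference of co-culture from mono-culture in 4T1 CM was -0.77 with the replicate number as a block and 1.87 in DESeq2, and its interaction was -0.15 to 1.95 without 1 library. The Ccn3 difference for 4T1 CM was -6.11 to -4.73 in co-culture and -7.28 to -6.87 in mono-culture without 1 library, and that of Ccn5 -5.16 to -3.06 and -5.52 to -4.50. What moved was the number of genes called in all. For co-culture in 4T1 CM (3 genes) it was 5 with a pseudocount of 0.5, 0 with a pseudocount of 5, 1 with a filter of at least 20 in at least 3 libraries, 0 with quantile normalization, 0 in edgeR, 22 in DESeq2, 0 with only the groups compared and 0 to 296 without 1 library, highest without mono-culture in 4T1 CM replicate 2. For co-culture in DMEM (124) it was 63 with the stricter filter, 211 in DESeq2, 205 with only the groups compared and 18 to 143 without 1 library. For the interaction (18) it was 11 in edgeR, 138 in DESeq2 and 2 to 197 without 1 library, highest without that same library. For 4T1 CM in co-culture (725) it was 444 with only the groups compared and 264 to 818 without 1 library, lowest without co-culture in DMEM replicate 1. For 4T1 CM in mono-culture (1648) it was 535 to 1745, lowest without mono-culture in 4T1 CM replicate 1. The causes were not tested, beyond the fewer libraries or genes of some of these fits. Deviations of same-numbered libraries from their group means had correlations of -0.24 to 0.19. With so few libraries per group, this check cannot show whether they share mice or a batch. The numbers are used here as names of samples only. With the replicate number as a block, 0 genes were called for co-culture in 4T1 CM and 1 for the interaction. The interaction was not run with only the groups compared, since it needs all 4. Depth limits the low end: 3 reads correspond to 1.53 to 6.09 normalized reads in a fibroblast library, and Ccn5 at 1.66 in co-culture in 4T1 CM replicate 2 lies below that library's 2.49.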
